A study of Mus musculus with 6 samples.

Results

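The ISG15 conjugation genes Ube2l6, Isg15, Uba7 and Usp18 and the interferon-induced genes Ifi35, Bst2 and Ido1 were followed in mouse dendritic cells with and without CD40 stimulation. These 7 genes were named by symbol and were chosen from earlier results of the same comparison of log2 array intensities, so their differences between the groups are given as a description, without a test. All 7 symbols occur among the 17551 probe sets of the deposited table, but only 6 have a probe set of their own among the 12780 genes compared. Isg15 shares its only probe set with Gm9706, which RefSeq lists as a pseudogene, and that probe set is described under both names.

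The samples were 3 anti-CD40 stimulated and 3 unstimulated preparations of migratory type 1 conventional dendritic cells (cDC1), each hybridised to 1 Affymetrix array. All came from skin-draining lymph nodes of wild-type C57BL/6 mice and were sorted as cells that carry XCR1 and CD40, with high MHC II and intermediate CD11c, and that lack B220, CD326 and Sirpa. All groups were thus selected for CD40 on the surface. The labels call the samples biological replicates but do not say whether they came from separate animals, so p-values speak only to how far these arrays differ from each other, technical variation included. The sources used here do not give age, antibody clone, dose, duration or whether stimulation took place in the animal or in culture. Fewer cells of a type and less RNA per cell cannot be told apart in such bulk samples.

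ISG15 is a ubiquitin-like protein made in response to interferon. UBA7 activates it, UBE2L6 (also called UBCH8) carries it to ligases such as HERC6 in the mouse, and USP18 removes it again and also dampens signalling from the type I interferon receptor. Ifi35, Bst2 and Ido1 are induced by interferons in many cells: IFI35 binds NMI, BST2 (tetherin) holds budding viruses at the cell surface, and IDO1 breaks down tryptophan to kynurenine, an activity of dendritic cells that restrains T cells. Interferon responses commonly act through STAT and IRF proteins bound to interferon-stimulated response elements or gamma activated sites, whereas CD40 signals largely through NF-kB.

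Promoter windows show which members carry these binding letters near the start site. RefSeq windows of 250 bases before and 50 bases after the start (GRCm38.p6) were on hand for 5 of the 7 members. There was no window for Usp18 and Ido1. Capitals mark the cores of the interferon-stimulated response element (GAAANNGAAA) and of the gamma activated site (TTCNNNGAA), searched on both strands. The Ube2l6 window is shown because its RNA differed most steadily between the groups, Isg15 and Bst2 because they hold response element cores, and Ifi35 because it holds a gamma activated site core. They lie at chr2:84798578-84798877 (plus strand), chr4:156200769-156201068 (minus strand), chr8:71537423-71537722 (minus strand) and chr11:101448162-101448461 (plus strand), in the order Ube2l6, Isg15, Bst2 and Ifi35.

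Ube2l6: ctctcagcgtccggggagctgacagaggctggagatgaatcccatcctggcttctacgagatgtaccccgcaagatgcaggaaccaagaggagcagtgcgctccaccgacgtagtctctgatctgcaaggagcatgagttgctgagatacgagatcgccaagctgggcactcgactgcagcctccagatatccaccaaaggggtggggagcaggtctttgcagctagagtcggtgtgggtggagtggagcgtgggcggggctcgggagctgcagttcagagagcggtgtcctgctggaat
Isg15: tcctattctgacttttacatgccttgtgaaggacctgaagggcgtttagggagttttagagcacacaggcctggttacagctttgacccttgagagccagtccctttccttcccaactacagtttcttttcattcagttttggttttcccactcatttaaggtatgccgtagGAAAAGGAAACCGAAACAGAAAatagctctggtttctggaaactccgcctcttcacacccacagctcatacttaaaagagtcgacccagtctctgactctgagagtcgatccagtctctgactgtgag
Bst2: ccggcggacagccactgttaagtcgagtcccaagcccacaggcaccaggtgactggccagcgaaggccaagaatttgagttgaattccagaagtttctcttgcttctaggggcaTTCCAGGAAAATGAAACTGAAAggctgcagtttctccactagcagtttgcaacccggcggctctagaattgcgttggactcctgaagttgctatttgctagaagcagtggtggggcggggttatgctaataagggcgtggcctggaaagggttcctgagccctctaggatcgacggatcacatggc
Ifi35: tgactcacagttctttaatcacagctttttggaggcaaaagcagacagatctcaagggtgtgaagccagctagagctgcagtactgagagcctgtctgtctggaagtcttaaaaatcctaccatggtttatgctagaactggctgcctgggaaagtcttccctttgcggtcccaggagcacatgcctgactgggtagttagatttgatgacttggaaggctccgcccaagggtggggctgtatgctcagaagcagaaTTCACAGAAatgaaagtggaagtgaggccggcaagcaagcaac

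The Isg15 window held 3 overlapping response element cores, at positions -78 to -57, negative positions lying before the start. Bst2 held 2 overlapping cores, at positions -130 to -115, and a gamma activated site core at -136 to -128 that overlaps the first of these. Ifi35 held 1 gamma activated site core, at positions 8 to 16. Neither core occurred in the windows of Ube2l6 and Uba7. Of all 32851 windows, 3.44% held a response element core and 8.30% a gamma activated site core. A kappa B core (GGGNNNNNCC) occurred at 1 place in the Ifi35 window and at 2 in the Bst2 window, 1 of which overlaps the gamma activated site core. It occurred in none of the windows of Ube2l6, Isg15 and Uba7, and 50.8% of all windows held it. A match is a run of letters, not a bound site, and its absence holds for this window alone. Only exact letters were counted, so a run that differs from a core by 1 base was left out.

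**Figure D1:**
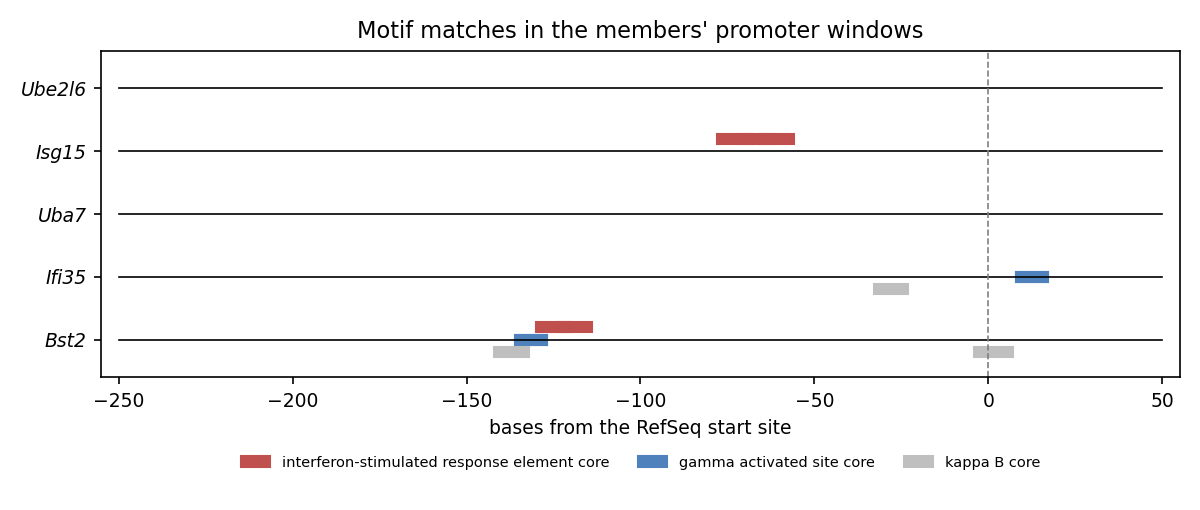
Motif matches in the RefSeq promoter windows of 5 members, drawn by distance from the start site in bases (x axis). Red boxes are interferon-stimulated response element cores, blue boxes gamma activated site cores and grey boxes kappa B cores; the Ube2l6 and Uba7 lines carry no box.

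Among the 3 conjugation genes with their own probe set, the E2 gene Ube2l6 stood apart from the E1 gene Uba7 and the protease gene Usp18. Ube2l6 (probe set 10473356) had log2 intensities of 9.05, 9.03 and 9.09 on stimulated arrays 1, 2 and 3, against 7.98, 7.83 and 8.05 on unstimulated arrays 1, 2 and 3. Every stimulated value thus lay about 1 log2 unit above every unstimulated value. The means were 9.05 ± 0.03 in stimulated and 7.96 ± 0.12 in unstimulated cells (SD, n = 3 each), a log2 difference of 1.10 ± 0.15 (SE) or 2.14-fold. The spread within its groups was small: only 2.93% of all genes had a smaller pooled SD than its 0.08 (log2), where the median over all genes was 0.28. As to the size of the difference, 54 of the 12780 genes had a larger positive one.

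Uba7, which encodes the E1 enzyme that activates ISG15 ahead of UBE2L6, had nearly the same mean in both groups. Its probe set (10588786) read 8.48, 7.67 and 8.20 on the stimulated arrays, against 8.47, 7.33 and 8.23 on the unstimulated ones. The ranges of the groups overlapped almost entirely. The means were 8.12 ± 0.41 in stimulated and 8.01 ± 0.60 in unstimulated cells (SD, n = 3 each), and the log2 difference was 0.11 ± 0.35 (SE). Its sign changed under 5 of 15 alternative settings, among them leaving out stimulated array 1 (-0.08) or unstimulated array 2 (-0.24).

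Usp18 (probe set 10541307) read 7.57, 7.11 and 7.23 on the stimulated arrays, against 8.08, 7.13 and 7.50 on the unstimulated ones. The highest value belonged to an unstimulated array, but the groups overlapped. The means were 7.30 ± 0.24 in stimulated and 7.57 ± 0.48 in unstimulated cells (SD, n = 3 each), with a log2 difference of -0.27 ± 0.27 (SE). Without unstimulated array 1 it was -0.01, without stimulated array 2 it was -0.17, and without unstimulated array 2 it was -0.49.

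The probe set annotated to both Isg15 and Gm9706 (10451287) read 5.42, 5.62 and 6.43 on the stimulated arrays, against 5.26, 5.93 and 5.40 on the unstimulated ones. Stimulated array 3 alone stood above the rest. In a fit over all 17551 probe sets the log2 difference was 0.30 ± 0.31 (SE). How much of this signal came from Isg15 was not tested.

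Ifi35 had a higher mean in stimulated cells, with 1 stimulated array below the highest unstimulated one. Its probe set (10381408) read 7.35, 7.02 and 7.75 on the stimulated arrays, against 7.07, 6.04 and 6.85 on the unstimulated ones. The means were 7.37 ± 0.37 in stimulated and 6.65 ± 0.54 in unstimulated cells (SD, n = 3 each), a log2 difference of 0.72 ± 0.32 (SE) or 1.65-fold. Without unstimulated array 2 it was 0.41. Nmi, whose product binds IFI35, differed by 0.14 ± 0.18 (SE; 95% interval -0.28 to 0.56).

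Bst2 had almost equal means and 1 high stimulated array. Its probe set (10579532) read 8.09, 7.92 and 9.01 on the stimulated arrays, against 8.33, 8.27 and 8.64 on the unstimulated ones. The lowest and the highest of the 6 values were both from stimulated arrays. The means were 8.34 ± 0.59 in stimulated and 8.41 ± 0.20 in unstimulated cells (SD, n = 3 each), and the log2 difference was -0.07 ± 0.30 (SE). Its sign also changed under 5 of 15 settings, among them leaving out stimulated array 1 (0.05), stimulated array 2 (0.14) or unstimulated array 3 (0.04), and without stimulated array 3 it was -0.41.

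BST2 also marks plasmacytoid dendritic cells, so their markers are given beside it. Of 15 such markers 8 were measured, with summed intensities of 451 to 563 on the stimulated and 404 to 505 on the unstimulated arrays. The sum was highest on stimulated array 3, as Bst2 was. On that array Spib, a transcription factor gene of these cells and of B cells, read 6.04, against 4.84 and 4.38 on the other stimulated arrays and 4.35 to 4.77 on the unstimulated ones. Il3ra had its highest value of all 6 arrays there (8.0), against 6.67 on stimulated array 2, and Cox6a2 its highest stimulated value (5.28). Il3ra also had the highest mean of the 8 in both groups, so it weighed heavily in the sum. The defining gene Siglech read 4.50 there, within its range of 4.31 to 5.21 on the stimulated and 4.30 to 5.39 on the unstimulated arrays, and Tcf4 had its lowest stimulated value there (6.55). Lag3, Ly6d and Pacsin1, the other 3 measured markers, were highest on stimulated array 2. The part of other cells in the Bst2 values was not tested.

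Ido1 had a lower mean in stimulated cells, at a spread that kept the groups overlapping. Its probe set (10577655) read 6.58, 4.89 and 6.29 on the stimulated arrays, against 7.39, 6.51 and 6.86 on the unstimulated ones. The highest stimulated value lay just above the lowest unstimulated one. The means were 5.92 ± 0.91 in stimulated and 6.92 ± 0.45 in unstimulated cells (SD, n = 3 each), and the log2 difference was -1.0 ± 0.46 (SE), a ratio of 0.50. Without stimulated array 2 it was -0.48.

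**Figure D2:**
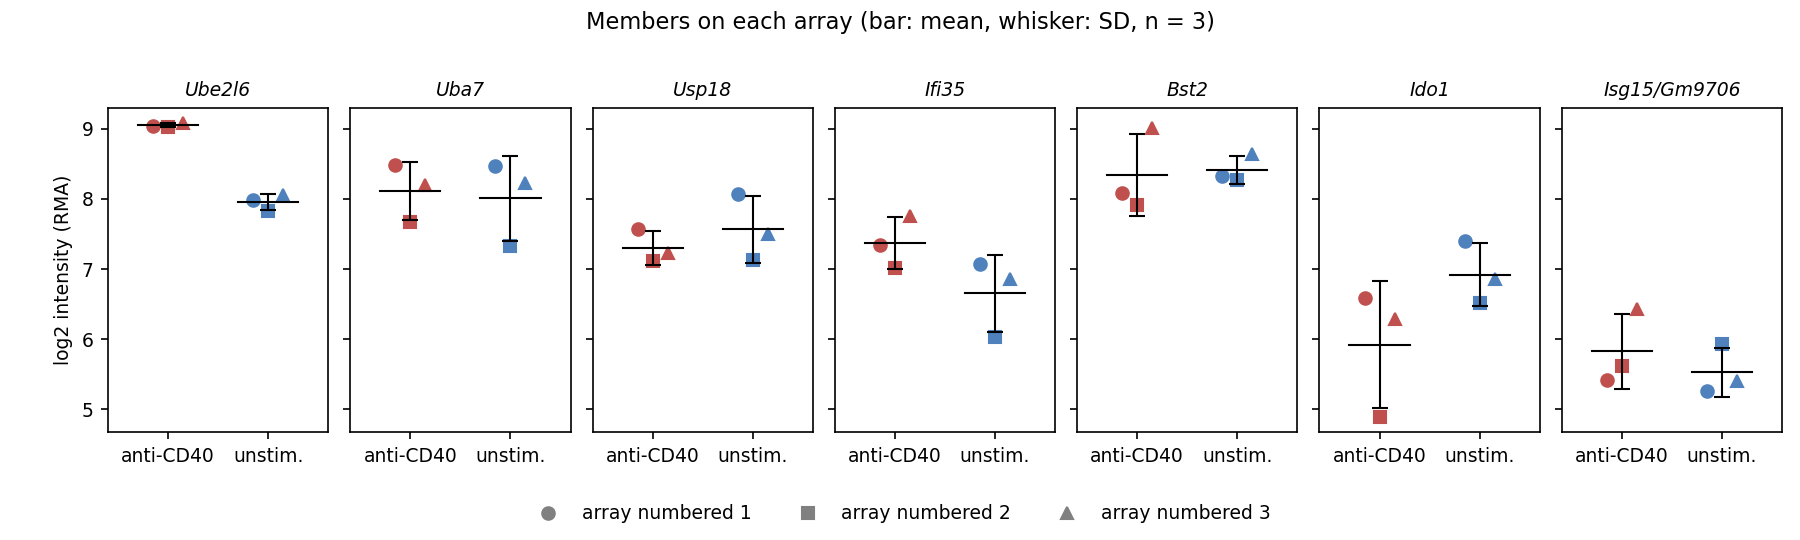
Log2 RMA intensity (y axis) of each member's probe set on the 3 anti-CD40 stimulated arrays (left, red) and the 3 unstimulated arrays (right, blue) of each panel, with symbols for the array number, lines for means and whiskers for SD. Ube2l6 separates the groups with little spread, Ido1 is the most spread, and heights of different panels cannot be compared because each probe set has its own response.

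Of the 6 members with their own probe set, 1 (Ube2l6) had groups that did not overlap in the upward direction and 0 in the downward direction. Over all genes this held for 3.68% upward and 3.46% downward. By limma with Benjamini-Hochberg adjustment over all genes, 0 of the 6 members were called, against 0.0156% of all genes (2 of 12780, Cd70 and Tnfsf9). Leaving out any 1 array left 0 genes called higher. At an unadjusted p under 0.05 the counts were 1 member higher and 0 lower, against 2.07% of genes higher and 1.42% lower. Since this contrast chose the members, nothing is read from these counts. Each of the 6 exceeded an intensity of 20, a level every probe set of the table reached in the geometric mean of at least 1 group, on all 6 arrays, the lowest value being 29.6 for Ido1 on stimulated array 2. None of them therefore entered the table through 1 group alone.

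Within the groups, Uba7, Usp18, Ifi35 and Ido1 varied with the array number. Both arrays numbered 2 gave the lowest value of their group for all 6 members with their own probe set, although for Bst2 and Ube2l6 by small margins. The same held for 23.6% of all genes and for 40.2% of the 3383 genes whose mean lay within the members' range. The difference between arrays 1 and 2 was 0.81 in stimulated and 1.15 in unstimulated cells for Uba7, 0.46 and 0.95 for Usp18, 0.33 and 1.03 for Ifi35, and 1.69 and 0.88 for Ido1. It was 0.02 and 0.16 for Ube2l6, and 0.17 and 0.07 for Bst2. The probe set of Isg15 and Gm9706 went the other way, with -0.20 in stimulated and -0.67 in unstimulated cells.

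These arrays also differed in their overall spread. The interquartile range of log2 intensities was 1.87 (stimulated) and 1.86 (unstimulated) on the arrays numbered 2, against 2.02 to 2.40 on the other 4. Median intensities lay between 51.9 and 56.3, and Pearson's r over genes between arrays of the same group was 0.915 to 0.958. Without both arrays numbered 2 the log2 difference was 1.05 for Ube2l6, 0.59 for Ifi35 and -0.69 for Ido1, and that of Uba7 turned to -0.01. The part of the array spread in the members' values was not tested.

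The genes whose profile over the 6 arrays was nearest to that of Ube2l6 were Il1rn, Vim, Cxcl1, Irs2 and Hcls1. Nearness was measured as the root mean square difference between log2 profiles, each centred on its own mean, and it was 0.07 for Il1rn, 0.13 for Vim, 0.17 for Cxcl1, 0.20 for Irs2 and 0.21 for Hcls1. Il1rn encodes a secreted protein that blocks IL-1 signalling and read 6.96, 6.76 and 6.90 on the stimulated arrays, against 5.92, 5.71 and 5.99 on the unstimulated ones. Vim encodes the intermediate filament protein vimentin and read 10.85, 10.60 and 10.61 on the stimulated arrays, against 9.71, 9.70 and 9.88 on the unstimulated ones. Both genes repeat the step of Ube2l6 between the groups, with slightly more spread among the stimulated arrays. The measure of nearness includes that step, so sharing it largely follows from how these genes were picked.

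The other 3 followed it less closely. Cxcl1, a chemokine for neutrophils, read 6.90, 7.28 and 7.24 against 6.02, 5.56 and 6.06 on stimulated and unstimulated arrays, and Irs2, an adaptor of the insulin receptor, read 7.51, 6.98 and 7.48 against 6.26, 6.21 and 6.04. Hcls1 encodes a cortactin-like actin regulator of blood cells and read 6.59, 6.47 and 6.53 against 5.69, 5.67 and 5.23. No interferon-induced gene of the lists used here was among these 5. Without the members, the 6 pathway lists described below held only 126 of the 12780 genes, so nothing is read from this. The other members were farther away, at 0.37 for Ifi35 (217 genes nearer), 0.62 for Uba7 (6925), 0.67 for Bst2 (9048), 0.74 for Usp18 (10727) and 1.19 for Ido1 (12733).

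**Figure D3:**
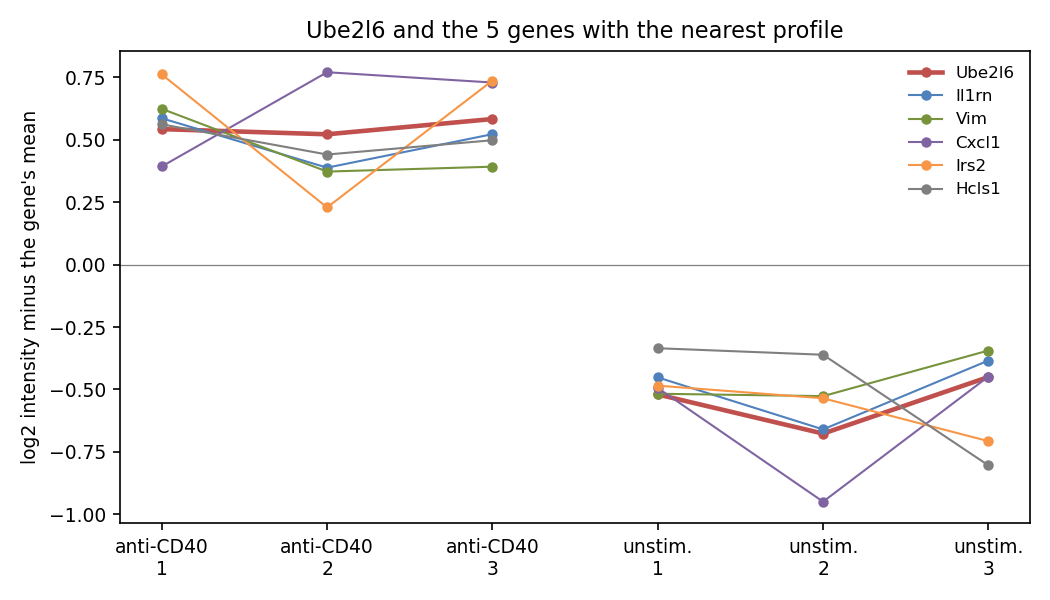
Log2 intensity minus each gene's own mean (y axis) for Ube2l6 and the 5 genes nearest to it on the stimulated (left) and unstimulated arrays (right), with lines that only join the points of a gene within a group. All 6 genes lie above their mean on every stimulated array and below it on every unstimulated one, which largely follows from picking them by nearness.

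The remaining genes of ISG15 handling were split in direction, and none passed the test. Of 11 listed, 9 were measured, 3 with positive and 6 with negative log2 differences and a median of -0.07, where the median over all genes was 0.005. By limma 0 were called, and the lowest adjusted p was 0.99998. At an unadjusted p under 0.05 the list held 1 higher gene (Ube2e1) and 1 lower gene (Trim25), and the same 2 were the ones whose groups did not overlap. Over all genes 2.07% were higher and 1.42% lower at that threshold. Groups did not overlap for 3.68% of all genes upward and 3.46% downward.

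Trim25 encodes an ubiquitin ligase of the RIG-I pathway that also has ISG15 ligase activity. It read 6.23, 5.17 and 6.73 on the stimulated arrays, against 7.77, 7.07 and 7.73 on the unstimulated ones. All 3 stimulated values were below all unstimulated values, with the lowest of each group on array 2. The log2 difference was -1.48 ± 0.41 (SE; 95% interval -2.43 to -0.52), which did not pass over all genes.

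Herc6, the main ISG15 ligase of the mouse, read 8.11, 7.38 and 7.89 on the stimulated arrays, against 8.40, 7.75 and 7.70 on the unstimulated ones, with a log2 difference of -0.16 ± 0.27 (SE; 95% interval -0.80 to 0.49). Arih1, a ligase that can work with UBE2L6, differed by -0.51 ± 0.33 (SE). Ube2e1, an E2 enzyme that has been found modified by ISG15, read 6.53, 6.60 and 6.68 on the stimulated arrays, against 6.25, 5.90 and 6.29 on the unstimulated ones. Its groups did not overlap, and its difference was 0.46 ± 0.18 (SE). Ube2l3, the closest relative of Ube2l6 and an E2 enzyme of ubiquitin, differed by 0.25 ± 0.21 (SE; 95% interval -0.25 to 0.74). The other measured genes were Usp16 (0.05), Usp21 (-0.05), Itgal (-0.07) and Ube2e2 (-0.12).

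Among tryptophan genes, Ido2 had lower stimulated values beside Ido1. Ido2 encodes a relative of IDO1 with weak activity, and its gene is the protein-coding neighbour of Ido1 on mouse chromosome 8 in RefSeq. Ido2 read 6.06, 5.63 and 5.28 on the stimulated arrays, against 6.80, 6.15 and 6.43 on the unstimulated ones. The groups did not overlap, and the log2 difference was -0.80 ± 0.26 (SE; 95% interval -1.42 to -0.19), which did not pass over all genes (limma adjusted p = 0.99998).

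Of 24 genes listed for tryptophan breakdown, transport and sensing, 17 were measured, with 10 positive and 7 negative differences and a median of 0.11. Again 0 were called, while 0 were higher and 3 lower at an unadjusted p under 0.05, beside 2.07% and 1.42% of all genes. These 3 were Ido2, Haao and Cyp1b1. Haao encodes an enzyme further down the kynurenine pathway and read 5.99, 6.08 and 6.58 on the stimulated arrays, against 6.96, 6.85 and 6.78 on the unstimulated ones. Its groups did not overlap, and its difference was -0.64 ± 0.20 (SE). Cyp1b1, a target of the aryl hydrocarbon receptor that kynurenine can engage, differed by -0.62 ± 0.26 (SE), and Ahrr, the repressor of that receptor and also its target, by -0.71 ± 0.41 (SE). Cyp1b1 had a geometric mean intensity of 14.8 in stimulated and 22.6 in unstimulated cells, so it too reached 20 through the unstimulated group alone, and its place among the 3 is no support for a lower level.

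Other steps had smaller differences or larger errors. Ahr itself, which encodes the receptor, differed by 0.18 ± 0.18 (SE), Afmid, which encodes the formamidase after IDO1, by 0.23 ± 0.36 and Kynu, which encodes kynureninase, by 0.26 ± 0.39. The highest difference in the list was that of Ptpn6 (0.62 ± 0.41), which encodes the phosphatase SHP-1 that IDO1 can recruit.

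**Figure D4:**
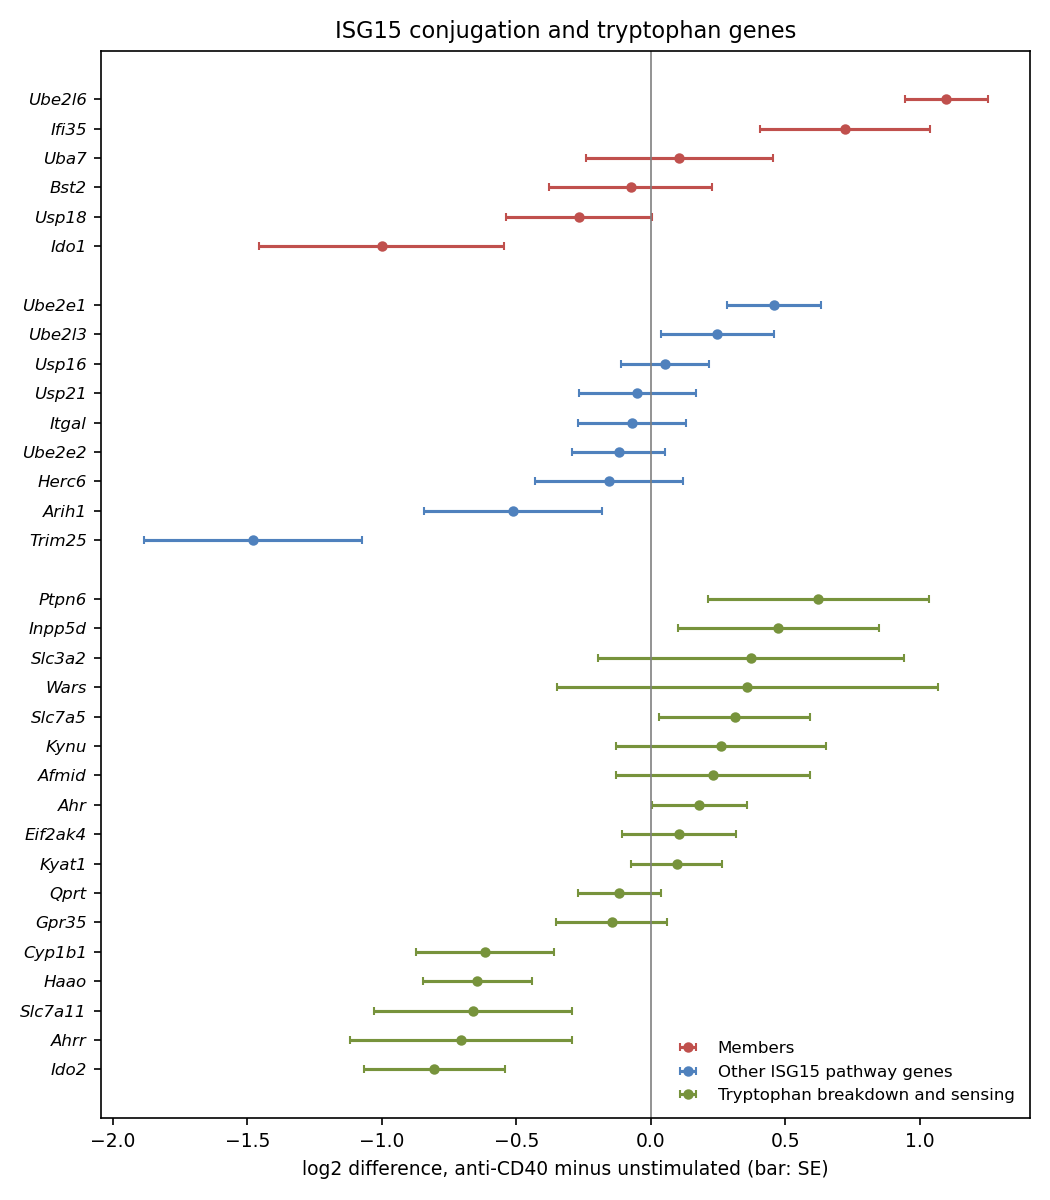
Log2 difference, anti-CD40 stimulated minus unstimulated (x axis), with SE bars, for the 6 members with their own probe set (red), 9 other genes of ISG15 handling (blue) and 17 genes of tryptophan breakdown and sensing (green). Ube2l6 is the highest point at 1.10 and Trim25 the lowest at -1.48.

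Interferon ligands gave 8 measured genes of 17 listed, with a median log2 difference of -0.07 and 0 called. Ifna2 read 3.93, 4.55 and 3.92 on the stimulated arrays, against 5.08, 4.94 and 4.74 on the unstimulated ones. It was the 1 lower gene of the list at an unadjusted p under 0.05, while 0 were higher, beside 1.42% and 2.07% of all genes. Its geometric mean intensity was 17.6 in stimulated and 30.3 in unstimulated cells, so it reached 20 through the unstimulated group alone and had to differ in this direction. Its log2 difference of -0.79 ± 0.22 (SE) is given as a value only. Ifnz had the highest difference of the list (0.34 ± 0.33). Genes of the interferon alpha family are close copies of each other, so signal can be shared between their probe sets. Ifnl2, an interferon lambda gene, differed by 0.24 ± 0.27 (SE).

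The genes that receive and relay interferon signals gave 18 measured of 20 listed, with 5 positive and 13 negative log2 differences, a median of -0.08 and 0 called. At an unadjusted p under 0.05 there were 0 higher and 0 lower, beside 2.07% and 1.42% of all genes. Ifnar1 and Ifnar2, the chains of the type I receptor, differed by -0.36 ± 0.29 and -0.24 ± 0.26 (SE), and Ifngr1 and Ifngr2, the chains of the interferon gamma receptor, by -0.04 ± 0.48 and -0.07 ± 0.46. The kinase genes Jak1 and Tyk2 differed by -0.29 ± 0.48 and 0.31 ± 0.61. Jak2, the lowest of the list, differed by -0.90 ± 0.39 (SE; 95% interval -1.81 to 0.01).

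Of the transcription factors that drive interferon-induced genes, Stat2 differed by 0.20 ± 0.35 and Irf9 by -0.003 ± 0.17 (SE). Irf1, which is induced by interferon gamma and by NF-kB, had the highest difference of the list. It read 10.10, 8.70 and 9.59 on the stimulated arrays, against 9.43, 8.36 and 8.14 on the unstimulated ones, and its difference was 0.82 ± 0.45 (SE). The feedback inhibitor Socs1 differed by 0.34 ± 0.30. Irf7 was not analysed here.

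Type I interferon-induced genes other than the members numbered 64 measured of 109 listed, with 37 positive and 27 negative log2 differences and a median of 0.05. By limma 0 were called, with a lowest adjusted p of 0.732 for Trim34a. Of the 64, 40 lay within 0.25 of 0 in either direction, a smaller share than the 9348 of all 12780 genes. At an unadjusted p under 0.05 there were 1 higher gene (Daxx, 0.74 ± 0.30) and 3 lower genes (Trim34a, Trim12a at -0.40 ± 0.15 and Ifi209 at -0.69 ± 0.27). Over all genes 2.07% were higher and 1.42% lower at that threshold. Groups did not overlap for 1 gene upward and 3 downward, beside 3.68% and 3.46% of all genes.

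None of the following antiviral genes of this list passed the test. Mx1, which blocks viral replication, differed by -0.47 ± 0.28 (SE; 95% interval -1.11 to 0.18), Oas2, a sensor of double-stranded RNA, by -0.16 ± 0.20 and the related Oasl1 by -0.23 ± 0.41. Ifit3 differed by -0.22 ± 0.26, Rsad2, which encodes viperin, by -0.09 ± 0.23 (95% interval -0.64 to 0.45), Ifih1, which encodes the RNA sensor MDA5, by -0.09 ± 0.24 and Ifitm3 by 0.09 ± 0.50.

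The extremes of the list were Helz2 and Trim34a. Helz2, a helicase gene, read 8.34, 6.35 and 7.44 on the stimulated arrays, against 7.19, 5.31 and 6.29 on the unstimulated ones, so its groups overlapped and the lowest of each was on array 2. Its difference was 1.11 ± 0.61 (SE). Trim34a read 6.23, 6.02 and 6.28 on the stimulated arrays, against 7.21, 6.78 and 6.96 on the unstimulated ones. The groups did not overlap, and the difference was -0.81 ± 0.18 (SE). It belongs to a cluster of similar Trim genes, so its probe set can take signal from related copies.

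Interferon gamma-induced genes gave 16 measured of 36 listed, with 6 positive and 10 negative log2 differences, a median of -0.09 and 0 called. At an unadjusted p under 0.05, 0 were higher and 0 lower, beside 2.07% and 1.42% of all genes. Cxcl10, a chemokine for activated T cells, had the lowest difference. It read 5.33, 5.72 and 5.68 on the stimulated arrays, against 5.89, 7.25 and 5.77 on the unstimulated ones. The groups did not overlap, but the step was large only against unstimulated array 2, and the difference was -0.73 ± 0.39 (SE). Cxcl9, which acts on the same receptor, differed by -0.27 ± 0.36 and the GTPase gene Irgm1 by -0.40 ± 0.21.

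Across the 6 lists, 126 of 208 different genes were measured and 0 were called, with 2 higher and 8 lower at an unadjusted p under 0.05. That is 1.59% higher and 6.35% lower, beside 2.07% and 1.42% of all genes. Of the 126, 5 reached a geometric mean intensity of 20 in the unstimulated group alone (Ifna2, Ifnab, Cyp1b1, Ifit3 and Cxcl9), and the other 121 held 2 higher and 6 lower genes. The lists were chosen with earlier results known, so these shares are a description. A list of 14 measured NF-kB targets, put together with earlier results of these data known, had a median log2 difference of 0.50, 0 called, and 4 higher and 0 lower genes at an unadjusted p under 0.05, beside 2.07% higher and 1.42% lower over all genes. Because its genes were picked knowing these values, its count and median support nothing and are not set against the interferon lists. It was led by Bcl2l1, a survival gene (1.80 ± 0.24 SE, limma adjusted p = 0.203). Cd40, on which the cells were sorted, is in that list and read 10.08, 9.05 and 9.70 on the stimulated arrays, against 8.91, 8.13 and 8.77 on the unstimulated ones.

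**Figure D5:**
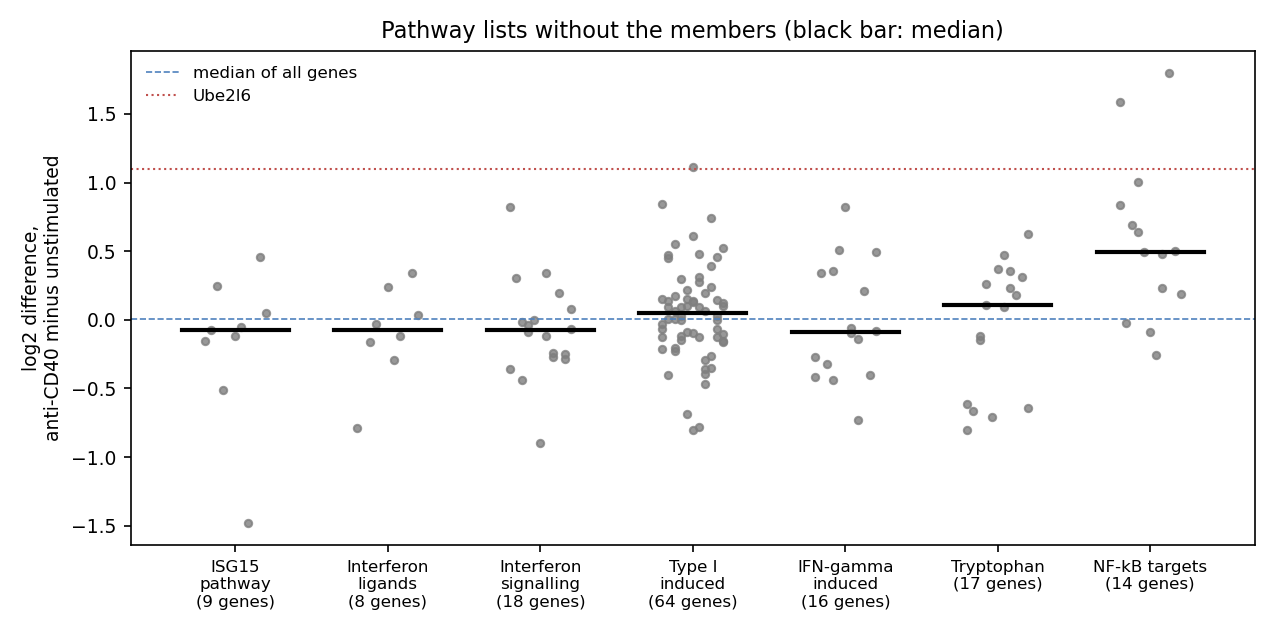
Log2 difference, anti-CD40 stimulated minus unstimulated (y axis), of each measured gene (points) in 6 pathway lists without the members and in a list of NF-kB targets, with black bars for list medians. The dotted line marks Ube2l6 (1.10), and 1 interferon-list gene, Helz2, lies above it.

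Markers of cDC1 are given beside that label, and 12 of 15 were measured. Their summed intensities ran from 4981 to 8709 on the stimulated and from 4769 to 7757 on the unstimulated arrays. The defining genes Xcr1 and Clec9a read 4.67 and 6.41 on average in stimulated cells and 4.44 and 6.67 in unstimulated cells. Xcr1 was thus close to the intensity of 20 that every probe set reached in at least 1 group. Its signal therefore says little about the label. Xcr1 is also a gene on whose protein the cells were sorted. Other markers of the list were brighter. Irf8 read 10.76 to 12.38 on the stimulated and 10.2 to 11.87 on the unstimulated arrays, and Batf3 9.43 to 10.19 and 8.55 to 9.76. Irf8 and Cd24a had the highest means of the 12 in both groups, so they weighed heavily in the sum. Of the 12 markers, 6 had positive and 6 negative log2 differences. Markers of T and NK cells (6 of 14 measured) summed to 192 to 328 on the stimulated and 171 to 265 on the unstimulated arrays, and those of monocytes and macrophages (3 of 14) to 103 to 157 and 105 to 122. Epcam, the gene of CD326, on which the cells were sorted negative, read 5.36, 5.51 and 5.06 on the stimulated arrays, against 4.71, 4.60 and 4.90 on the unstimulated ones, without overlap. Cd207, which with Epcam marks Langerhans cells, differed by -0.07 ± 0.19 (SE). The type 2 dendritic cell markers Cd7 (0.48 ± 0.22 SE) and Sirpa (0.15 ± 0.15 SE) also had higher stimulated values without overlap, as had the T cell gene Cd3e (0.20 ± 0.16 SE). Of the 6 measured T and NK markers 6 had positive differences and 0 negative ones, from 0.07 to 0.64 with a median of 0.31. Of the 5 measured type 2 markers 4 had positive differences and 1, Zeb2, a negative one (-0.32 ± 0.20 SE). Sirpa had low means of 4.83 in stimulated and 4.67 in unstimulated cells. Of the cDC1 markers, Cd24a was lower without overlap (-0.48 ± 0.16 SE) and Cadm1 higher (0.36 ± 0.17 SE). Of 17 markers of migratory mature dendritic cells 15 were measured, 11 with positive and 4 with negative differences. Higher stimulated values without overlap were found for 5 of them, lower ones for 0. The 5 were Cd86 (1.54 ± 0.22 SE), Cd40 (1.01 ± 0.32), Cd80 (0.60 ± 0.21), Socs2 (0.48 ± 0.20) and Marcksl1 (0.36 ± 0.20). Groups did not overlap for 3.68% of all genes upward and 3.46% downward, and the markers without overlap were named for that reason. By limma none of these marker genes was called over all genes, and their part in the members' values was not tested.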

How the data were processed

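Expression Console (Affymetrix) and RMA are named in the submitters' processing notes. RMA corrects background, normalises arrays by quantiles and summarises probes. The sources used here give no versions, settings or filter. The values the authors deposited are intensities for 17551 probe sets on 6 arrays, from 6.97 to 13701 and hence linear, so log2 of the deposited intensities was taken before fitting. Probe sets were named through GEO's platform annotation: 13963 had 1 symbol, 970 several and 2618 none. The brightest probe set stood for each of the 12780 genes, and each member had a single one.

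The comparison of stimulated with unstimulated cells used lmFit and eBayes of limma 3.58.1 under R 4.3.3 (two-sided, no covariates), with Benjamini-Hochberg adjustment over all genes and a threshold of 0.05. The code was tested on simulated data. The number of arrays limits the precision. Members, lists and the rule for named genes were chosen with earlier results of these data known. The rule took all members, the 5 genes nearest to Ube2l6, ISG15, ligand and tryptophan genes, fixed genes of the other lists and each list's extremes, and further genes at an unadjusted p under 0.05 and further marker genes were named after their values were seen. Promoter windows came from RefSeq (GRCm38.p6). Alternatives were a variance trend, a filter on dim genes, another normalisation, centring, a block for the replicate number, weights for arrays, leaving out arrays, the mean of probe sets, another threshold and, added after seeing the data, leaving out both arrays numbered 2 and the interquartile range as a covariate. Python 3.11.15 with matplotlib 3.10.9 drew the figures.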

Additional observations from a re-analysis of the deposited data

How the results depend on the processing

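Ube2l6 kept its direction under all 15 alternatives (log2 difference 1.03 to 1.15), as did Ifi35 (0.41 to 0.93), Usp18 (-0.49 to -0.01) and Ido1 (-1.33 to -0.48), whereas Uba7 (-0.24 to 0.34) and Bst2 (-0.41 to 0.14) each changed sign under 5. The variance trend, the filter on dim genes, the replicate block and the mean of probe sets left every member's difference unchanged. They could not do otherwise, since each group held the same replicate numbers and each member had a single probe set. The trend and the filter do not enter a gene's difference. Directions kept under these settings are therefore no support for any member. Because the groups of Ube2l6 did not overlap, leaving out arrays could not change its sign. Its kept direction is therefore no support for the difference. Members called numbered 0, but 1 (Ube2l6) with array weights and 1 with the replicate block. Over all genes 2 were higher and 0 lower. Array weights gave 28 higher and 18 lower, the replicate block 30 and 8, the interquartile range as a covariate 11 and 4, and quantile normalisation once more 1 lower. Leaving out 1 array gave 0 to 0 higher genes, and leaving out both arrays numbered 2 gave 0. Of the pathway lists 2 genes were called with the replicate block (Helz2 and Trim25) and 0 otherwise. The causes were not tested.

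The replicate numbers do not pair the samples by the labels, and deviations of same-numbered arrays from their group means correlated at 0.73, 0.59 and 0.06, while 5 of 6 arrays correlated best with their own number. The median of the ligand list was 0.24 when the dimmest genes were left out, against -0.07 with all genes, and fewer genes are in it there. The median of the ISG15 handling list ran from -0.137 to 0.00825 when 1 array was left out. Medians of the type I (-0.007 to 0.09), interferon gamma (-0.26 to 0.05), signalling (-0.27 to 0.25) and tryptophan lists (-0.09 to 0.23) moved by less than 1 SD between arrays but changed sign under 1, 2, 4 and 2 of 15 alternatives. Low signal limits what the interferon ligand probe sets can show.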
